A study of Mus musculus with 9 samples.

Results

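Sp8, Sp9, Six3, Ikzf1, Ikzf2, Zfp503, Tshz1 and Tshz2 are transcription factor genes of the developing striatum, several of them known from the neurons of the indirect pathway. They were picked by symbol, as the 8 genes among the 44886 Ensembl identifiers of the count files that GENCODE M21 assigns to these names. The rule uses no measured value, although the names were chosen with earlier results of these data known. All 8 passed the filter on low counts. RNA was sequenced from the striatum of 9 mouse embryos taken at E17.5, 3 of each of 3 genotypes, with 1 library per embryo, and the comparisons ask what the loss of Ebf1, a transcription factor of direct pathway neurons, does to the striatum. The Control embryos came from the same crosses and were heterozygous for Ebf1, and whether they carried a Cre allele is not given in the sources used here. The Islet1Cre;Ebf1fl/- embryos had 1 floxed and 1 null Ebf1 allele and a Cre active in direct pathway neurons and cholinergic interneurons. The Dlx5/6::Cre;Ebf1fl/- embryos had the same Ebf1 alleles and a Cre active in all striatal projection neurons and interneurons. The labels give strain C57BL/6 for every embryo, whereas the methods place the Islet1Cre line on a B6D2F1/J background.

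Striatal projection neurons (SPN) are the inhibitory output cells of the striatum. Direct pathway cells (dSPN) express the dopamine receptor Drd1 and tachykinin, and indirect pathway cells (iSPN) express Drd2, the adenosine receptor Adora2a and enkephalin. Both are born from progenitors of the lateral ganglionic eminence (LGE), where Dlx, Gsx and Sp factors act in sequence before a cell adopts either identity. The proteins of the 8 genes other than Six3 contain zinc fingers, while Six3 is a homeodomain protein that is known to act downstream of Sp8 and Sp9 in young iSPN.

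Promoters of a pair of genes are shown because Ikzf1 and Tshz2 are the members whose counts differed between genotypes, and because Ebf1 is itself a DNA-binding protein. RefSeq sequences of 300 bases, from 250 before to 50 after an annotated start on GRCm38.p6, were used for 6 of the 8 genes and covered 9 starts. They were searched for the palindromic EBF core CCCNNGGG, which is printed in capitals, and on both strands for the GC box GGGCGG, the motif of Sp factors.
Ikzf1, first start, chr11:11685675-11685974, plus strand: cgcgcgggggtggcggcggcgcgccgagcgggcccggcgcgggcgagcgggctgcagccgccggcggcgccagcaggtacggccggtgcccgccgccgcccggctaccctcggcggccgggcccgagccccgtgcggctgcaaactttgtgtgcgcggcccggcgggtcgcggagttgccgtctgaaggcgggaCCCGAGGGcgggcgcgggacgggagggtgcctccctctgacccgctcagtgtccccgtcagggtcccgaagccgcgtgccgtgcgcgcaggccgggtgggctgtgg
Tshz2, chr2:169632259-169632558, plus strand: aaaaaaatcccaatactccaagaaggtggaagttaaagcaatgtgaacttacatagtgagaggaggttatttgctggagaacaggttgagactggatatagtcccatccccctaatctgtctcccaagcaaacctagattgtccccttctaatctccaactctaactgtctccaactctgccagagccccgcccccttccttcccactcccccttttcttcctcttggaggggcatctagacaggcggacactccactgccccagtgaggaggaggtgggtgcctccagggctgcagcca
The first Ikzf1 start was the only 1 of the 9 with the EBF core, 56 bases before the start, within a stretch of 81.3% G and C. That is 11.1% of these promoters, against 13.7% of all 32851 RefSeq promoters. The GC box was found in 44.4% of the 9 and in 35.7% of all. A match of letters is a description and shows no binding.

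Counts on genes totalled 16.5 to 41.5 M per library. All 7 genes that mark SPN, among them Foxp1, Bcl11b and Gad1, were present in each embryo, the lowest at 3467 normalized counts. Of these, Foxp1, a forkhead factor of SPN, lay below every control in all 6 mutants, as did 4.08% of all genes tested. It was called lower in Dlx5/6::Cre;Ebf1fl/- embryos (-0.53 on the log2 scale, adjusted p = 0.0305 in edgeR) and over the mean of both mutants (-0.43, adjusted p = 0.0347). The SPN genes did not fall together, and 4 of the 7 had log2 fold changes above 0 over that mean. The highest was Meis2 (0.42), which was not called. It lay above every control in all 6 mutants, as did 3.63% of all genes tested. The first Dlx5/6::Cre;Ebf1fl/- embryo stood apart, with 6.80% of the 12051 better expressed genes at least 1.5-fold above the median of the other embryos, whereas the share was 0.357% to 3.50% in each of the rest. The first control was next, with 3.50% above and 3.29% at least 1.5-fold below. The remaining embryos had at most 1.44% above and 1.89% below. That control also had the highest Ikzf1 and the lowest Tshz2 count. Xist and Y-linked counts occurred together in Control replicate 3 (12074 and 295 normalized counts) and in Islet1Cre;Ebf1fl/- replicate 3 (7270 and 2450), so each of these libraries held RNA of both kinds. Control replicate 2 had 3800 Y-linked counts beside 3.3 of Xist. In each remaining library, all 3 Dlx5/6::Cre;Ebf1fl/- embryos among them, Xist came with at most 3.6 Y-linked counts. Sex is thus partly confounded with genotype, and no fit used sex as a covariate. The embryo codes begin with IE for all Islet1Cre;Ebf1fl/- embryos and 2 controls, and with D for all Dlx5/6::Cre;Ebf1fl/- embryos and 1 control, so code and genotype are partly confounded. Ebf1 counted over the whole gene was not lower in mutants than in controls, so it is no check on the labels, and every genotype named is the labelled one.

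In control striatum the 8 genes spanned more than an order of magnitude. Levels are given as CPM per kb, which is counts scaled to a common library total and divided by the kilobases of exon. On that scale Ikzf1 had the highest level at 25.99 ± 8.1 (SD, n = 3), followed by Zfp503 at 25.1 ± 4.9. Their ranges over embryos, 20.0 to 35.2 and 20.8 to 30.4, overlapped. Sp9 (13.8), Tshz1 (12.5) and Six3 (10.9) formed a middle group whose ranges also overlapped with each other and lay below those of Zfp503. Tshz2 followed at 5.74, below every Six3 value, and Ikzf2 (0.873) and Sp8 (0.697) were lowest with overlapping ranges. With the longest transcript as the length in place of all exons, Six3 came to 16.1 CPM per kb, above Sp9 and Tshz1, so the order within the middle group is uncertain. The order changed in the mutants. Ikzf1 came after Zfp503, Sp9 and Tshz1 in Islet1Cre;Ebf1fl/- embryos, at 12.01 CPM per kb, and also after Six3 in Dlx5/6::Cre;Ebf1fl/- embryos, at 12.07, although the ranges of Ikzf1 overlapped with those of Sp9, Tshz1 and Six3 in Islet1Cre;Ebf1fl/- embryos and with that of Six3 in Dlx5/6::Cre;Ebf1fl/- embryos. Tshz2 reached 11.5 and 11.97 CPM per kb, within the range of Six3 in the same embryos. Among the 17 relatives from the same families, Sp3 had the highest control level (12.98 CPM per kb), whereas the means of Six4 and Ikzf3 lay at or below 0.0131 and 0.0168 in every genotype and Six6 had 0 counts in each library.

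**Figure D1:**
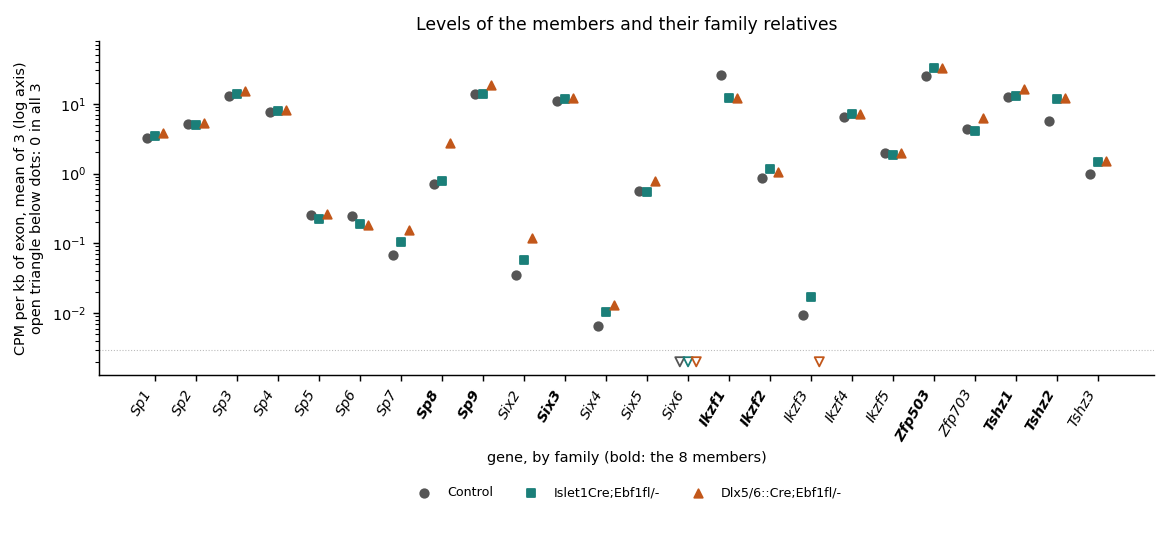
Mean level of each gene over 3 embryos per genotype, in CPM per kb of exon on a log axis, for the 8 members (bold) and relatives of the same families. Ikzf1 drops from 25.99 in controls to 12.01 and 12.07 in the mutants, Tshz2 goes from 5.74 to 11.5 and 11.97, and open triangles mark genes with 0 counts in all 3 embryos.

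Ikzf1 and Tshz2 were the members that differed from controls. Ikzf1 counts were roughly halved in both mutants and passed the threshold, an adjusted p below 0.05 in edgeR's quasi-likelihood test, in both comparisons. It was 1 of 8 members called in the Islet1Cre;Ebf1fl/- comparison, where 0.971% of all 16368 genes tested were called, and 1 of 8 in the Dlx5/6::Cre;Ebf1fl/- comparison, where 2.39% were. Tshz2 counts were about doubled in both mutants and passed only in the mean of both mutants against controls, in which Ikzf1 and Tshz2 were called among the 8 and 2.76% among all genes. The other 6 members passed in none of these fits. In tissue RNA, fewer cells that express a gene and less RNA per cell cannot be told apart. The comparisons with Control share the same 3 control embryos.

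**Figure D2:**
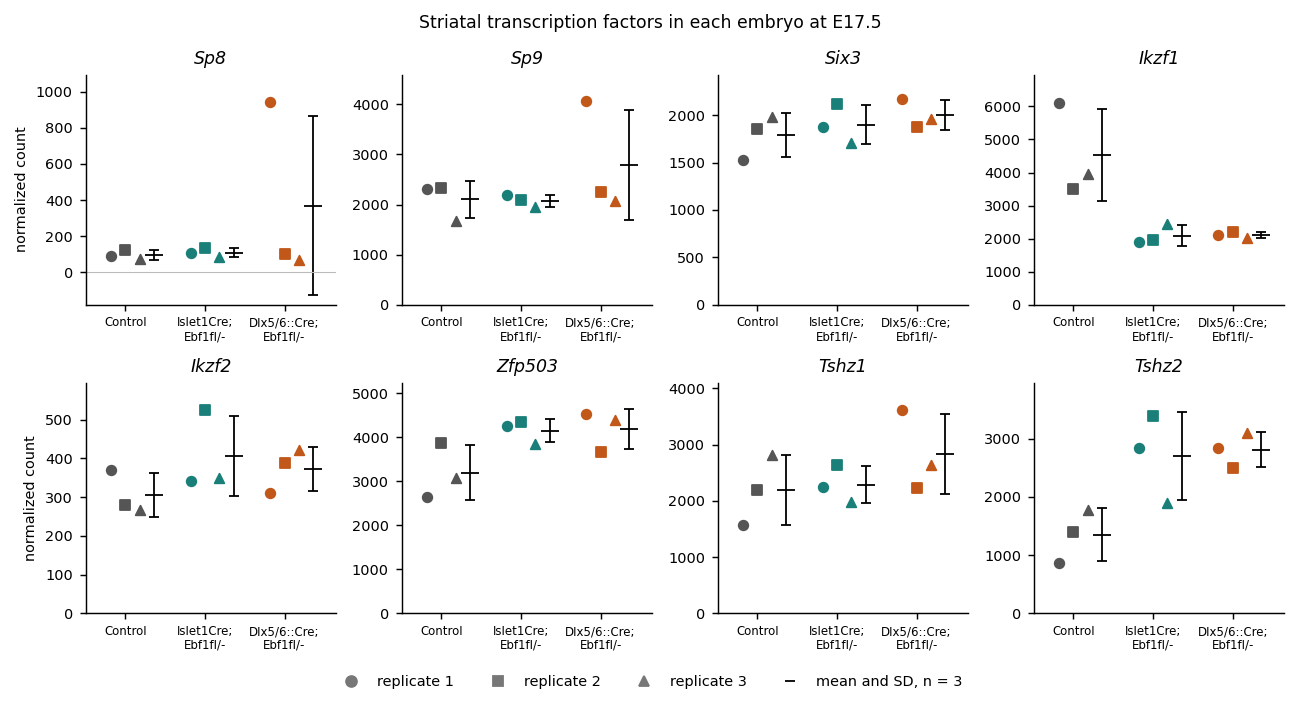
Normalized count (linear axis) of each member in every embryo, with replicates by symbol and the mean and SD over 3 embryos beside them. The 6 mutant embryos lie below every control for Ikzf1 and above every control for Tshz2, and a single Dlx5/6::Cre;Ebf1fl/- embryo sets the high mean of Sp8, at 942 against 68 to 135 in the others.

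Sp8 and Sp9 are paired zinc finger factors of LGE precursors that are known to be required for iSPN production, and Sp9 persists in iSPN. A normalized count here is a deposited count divided by the size factor of its library. Sp8 (ENSMUSG00000048562, chromosome 12, 118846329 to 118852576, plus strand, GRCm38) had 89.5, 126 and 72.1 normalized counts in controls, 105, 135 and 84.1 in Islet1Cre;Ebf1fl/- embryos, and 942, 100.2 and 67.7 in Dlx5/6::Cre;Ebf1fl/- embryos. A single embryo, the first Dlx5/6::Cre;Ebf1fl/- replicate, was far above the rest, 9.93 times their median, and the other 8 overlapped without regard to genotype. The log2 fold change over control was 0.18 in Islet1Cre;Ebf1fl/- embryos (95% interval -1.60 to 1.96, adjusted p = 0.999) and 1.94 in Dlx5/6::Cre;Ebf1fl/- embryos (0.17 to 3.71, adjusted p = 0.277). Without that embryo the latter was -0.20 (adjusted p = 0.779), so that the direction rested on 1 library. The spread of Sp8 between embryos was in the 99.4th percentile of all genes in the edgeR fit, a biological coefficient of variation of 0.633 against 0.104 to 0.211 for the other members.

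Sp9 (ENSMUSG00000068859, chromosome 2, 73271925 to 73284706, plus strand) followed the same embryo at a smaller scale. Its normalized counts were 2316, 2323 and 1675 in controls, 2183, 2089 and 1954 in Islet1Cre;Ebf1fl/- embryos and 4059.6, 2258 and 2064 in Dlx5/6::Cre;Ebf1fl/- embryos. The 3 genotypes overlapped apart from the high first Dlx5/6::Cre;Ebf1fl/- embryo, 1.90 times the median of the others. The log2 fold changes were -0.02 (95% interval -0.52 to 0.48) and 0.41 (-0.09 to 0.90) by edgeR, neither past the threshold (adjusted p = 0.999, 0.408). In the same embryo, most LGE progenitor genes and those of dividing cells were high too. Gsx1 and Dlx6 were exceptions, at 0.618 and 1.01 times the median of the other embryos. Gsx2, which specifies LGE progenitors, had 446 normalized counts there and 51.9 to 87.2 in the others, and Mki67, a marker of dividing cells, had 3540.4 against 465 to 988. The sums of such markers also differed between genotypes, without a test of the sums. The 8 LGE progenitor and precursor factors together had 255 to 349 CPM in controls, 365 to 455 in Islet1Cre;Ebf1fl/- embryos and 372 to 821 in Dlx5/6::Cre;Ebf1fl/- embryos, so that every mutant lay above every control, as for Tshz2. All 8 had log2 fold changes above 0 in both comparisons, with medians of 0.43 and 0.93 beside 0.00 and 0.01 over all genes, and 0 were called. The 8 cortical excitatory neuron markers together had 36.7 to 85.9 CPM in controls, 35.6 to 66.1 in Islet1Cre;Ebf1fl/- embryos and 91.3, 105 and 207 in Dlx5/6::Cre;Ebf1fl/- embryos, the highest in the first. All 8 had log2 fold changes above 0 in the Dlx5/6::Cre;Ebf1fl/- comparison (median 1.01) and 0 were called. The part of these cells in the counts of the members was not tested.

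Six3 (ENSMUSG00000038805, chromosome 17, 85613608 to 85629302, plus strand) varied least of the 8. It had 1529.6, 1855 and 1977 normalized counts in controls, 1872, 2119 and 1711 in Islet1Cre;Ebf1fl/- embryos, and 2175, 1872 and 1958 in Dlx5/6::Cre;Ebf1fl/- embryos. All genotypes overlapped, and the lowest count was that of the first control. The log2 fold changes were 0.09 (95% interval -0.16 to 0.34) and 0.16 (-0.08 to 0.41) in edgeR, which leaves room for a rise of at most 1.33-fold in Dlx5/6::Cre;Ebf1fl/- embryos within the interval.

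Ikzf1 encodes Ikaros, a zinc finger factor best known from lymphocytes, which is also expressed in young SPN and has been tied to the enkephalin cells of the indirect pathway. It lies on chromosome 11 from 11685003 to 11772926 on the plus strand (ENSMUSG00000018654), 32.8 Mb from Ebf1. Its normalized counts were 6115, 3497 and 3958 in controls, 1882, 1950.2 and 2448 in Islet1Cre;Ebf1fl/- embryos, and 2103, 2186 and 2016 in Dlx5/6::Cre;Ebf1fl/- embryos. Every mutant embryo lay below every control, a separation seen in 4.08% of all genes tested, and the 2 mutant genotypes overlapped. The first control was the highest, 2.85 times the median of the other 8 embryos.

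The log2 fold change of Ikzf1 was -1.12 in Islet1Cre;Ebf1fl/- embryos (95% interval -1.52 to -0.71, adjusted p = 0.0229 in edgeR's quasi-likelihood test), a level 0.461 times that of controls. In Dlx5/6::Cre;Ebf1fl/- embryos it was -1.11 (-1.51 to -0.70, adjusted p = 0.0122 in edgeR), 0.464 times controls. Over the mean of both mutants the adjusted p by edgeR was 0.00383. Within embryos of the same code the log2 ratio of means was -1.20 for IE (3 mutants against 2 controls) and -0.91 for D (3 mutants against 1 control). The call was lost in the Islet1Cre;Ebf1fl/- comparison without its first (adjusted p = 0.135) or second mutant embryo (0.148) or without the 2 libraries with mixed Xist and Y-linked counts (0.0672). In the Dlx5/6::Cre;Ebf1fl/- comparison it was lost without the third mutant embryo (0.0508) and with the embryo code as a covariate (0.266), all by edgeR, while the log2 fold change stayed between -1.33 and -0.83 in each alternative run for these comparisons.

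Microglia and blood cells also express Ikzf1, and their markers were not called lower beside it. The summed level of 8 microglia genes was 84.0 to 91.5 CPM in controls, 78.96 to 99.7 in Islet1Cre;Ebf1fl/- embryos and 97.4 to 113 in Dlx5/6::Cre;Ebf1fl/- embryos, and none of the 8 genes was called lower. The pan-leukocyte gene Ptprc had only 5.4 to 23.7 normalized counts per embryo. Fcrls, a microglia gene, was the 1 of these called in any comparison and rose by 1.08 on the log2 scale in Dlx5/6::Cre;Ebf1fl/- embryos (adjusted p = 0.0240 in edgeR). The 4 haemoglobin genes together had 552 CPM in the first control, which also had the most Ikzf1, and 259 to 389 CPM in the other embryos. Without that control Ikzf1 had a log2 fold change of -0.84 and -0.83 in these comparisons and passed the threshold in both. Of the haemoglobin genes, 3 of 4 had log2 fold changes below 0 in both comparisons, from -0.51 to -0.26 in Islet1Cre;Ebf1fl/- and from -0.61 to -0.16 in Dlx5/6::Cre;Ebf1fl/- embryos, with overlapping genotypes. The part of blood or microglia in the Ikzf1 counts was not tested.

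Ikzf2 encodes Helios, the Ikaros relative known to be expressed in maturing iSPN. It was scarce at this age (ENSMUSG00000025997, chromosome 1, 69531214 to 69687245, minus strand), with 371, 279 and 266 normalized counts in controls, 342, 526 and 349 in Islet1Cre;Ebf1fl/- embryos and 309.8, 387 and 421 in Dlx5/6::Cre;Ebf1fl/- embryos. The genotypes overlapped, and the second Islet1Cre;Ebf1fl/- embryo was the highest. Log2 fold changes were 0.41 (95% interval -0.04 to 0.87) and 0.29 (-0.17 to 0.74). In edgeR the adjusted p was 0.712 and 0.530. The paired relatives of Ikaros, Ikzf4 and Ikzf5, were not called, and Ikzf3 had at most 5.7 normalized counts in any embryo.

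Zfp503 encodes Nolz1, a zinc finger factor that appears as LGE cells leave the cell cycle and marks young striatal neurons. Its normalized counts (ENSMUSG00000039081, chromosome 14, 21983959 to 21989601, minus strand) were 2634, 3868 and 3077 in controls, 4247, 4356 and 3849.7 in Islet1Cre;Ebf1fl/- embryos and 4522, 3672 and 4384 in Dlx5/6::Cre;Ebf1fl/- embryos. Only the second control lay within the range of the mutants. The log2 fold changes were of one size, 0.38 (95% interval 0.09 to 0.67, adjusted p = 0.361) and 0.39 (0.10 to 0.68, adjusted p = 0.176) by edgeR, and neither passed the threshold, nor did the mean of both mutants (0.38, adjusted p = 0.138). Its relative Zfp703 had log2 fold changes of -0.07 and 0.53 and was not called.

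Tshz1 and Tshz2 encode teashirt zinc finger factors. Tshz1 is known from dSPN of the striosomes and from olfactory bulb interneurons, whereas less is established for Tshz2 in the striatum. Tshz1 (ENSMUSG00000046982, chromosome 18, 84011627 to 84087706, minus strand) had 1580.2, 2197 and 2818 normalized counts in controls, 2251, 2643 and 1979 in Islet1Cre;Ebf1fl/- embryos and 3616, 2227 and 2644 in Dlx5/6::Cre;Ebf1fl/- embryos. The genotypes overlapped, with the lowest count in the first control and the highest in the first Dlx5/6::Cre;Ebf1fl/- embryo. Log2 fold changes were 0.06 (95% interval -0.41 to 0.54) and 0.36 (-0.11 to 0.84) by edgeR, and adjusted p values were 0.999 and 0.442.

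Tshz2 (ENSMUSG00000047907, chromosome 2, 169633013 to 170071816, plus strand) behaved otherwise. It had 870.2, 1392 and 1779.6 normalized counts in controls, 2841, 3383 and 1892 in Islet1Cre;Ebf1fl/- embryos and 2841, 2497 and 3089 in Dlx5/6::Cre;Ebf1fl/- embryos. Every mutant embryo lay above every control, which was the case for 3.63% of all genes tested, but the third Islet1Cre;Ebf1fl/- embryo exceeded the third control only slightly, and both are libraries with mixed Xist and Y-linked counts. The log2 fold changes were 1.01 (95% interval 0.46 to 1.55, adjusted p = 0.113) and 1.06 (0.52 to 1.60, adjusted p = 0.0527) by edgeR against the shared controls, a level 2.01 and 2.09 times that of controls, and 1.03 (0.55 to 1.52, adjusted p = 0.0348) over the mean of both mutants. The ratio of Tshz2 means within embryos of the same code was 1.26 on the log2 scale for IE and 0.66 for D.

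The call of Tshz2 depended on single embryos and on the model. Over the mean of both mutants it was lost with the embryo code as a covariate (0.96, adjusted p = 0.0512 in edgeR) and with the replicate number as a block (1.06, adjusted p = 0.0540). By edgeR, its adjusted p over the mean of both mutants was 0.130 without the first control, 0.110 without the second control, 0.0902 and 0.0809 without the first or second Islet1Cre;Ebf1fl/- embryo and 0.0683 without the third Dlx5/6::Cre;Ebf1fl/- embryo. Without the 2 libraries with mixed Xist and Y-linked counts Tshz2 passed in each comparison with controls, at log2 values of 1.46, 1.31 and 1.39 against controls, for which edgeR gave adjusted p = 0.0397, 0.0232 and 0.0132. The difference in size between the changes of Tshz2 and Tshz1 was not tested. The third family member, Tshz3, had log2 fold changes of 0.58 and 0.63 and was not called, although every mutant embryo (190 to 324 normalized counts) lay above every control (115 to 186).

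**Figure D3:**
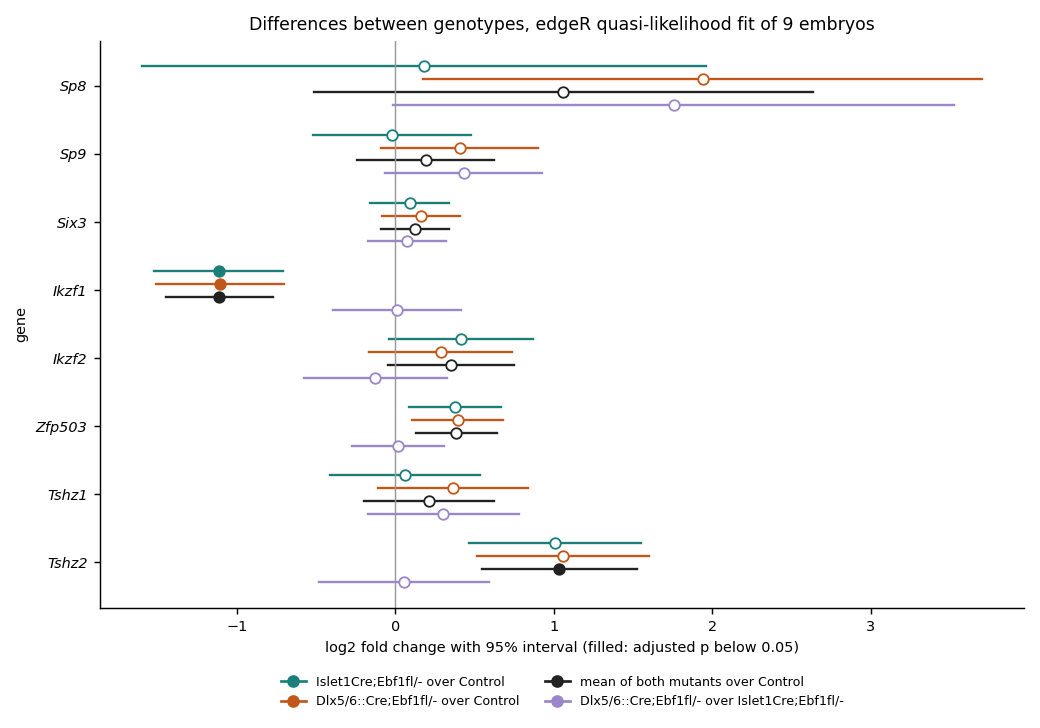
Log2 fold change of each member with its 95% interval, from 1 edgeR quasi-likelihood fit of all 9 embryos, for 4 comparisons. Filled points, with an adjusted p below 0.05, are Ikzf1 in the 3 comparisons with Control (-1.12, -1.11 and -1.11) and Tshz2 for the mean of both mutants (1.03).

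Between the 2 mutants no member passed the threshold. In the direct comparison of Dlx5/6::Cre;Ebf1fl/- with Islet1Cre;Ebf1fl/- embryos 0 of the 8 members and 0.0% of all genes were called by edgeR, where 844 genes had an unadjusted p below 0.05 and DESeq2's Wald test called 17 genes, none of them a member. The intervals come from the fit without the embryo code. The 2 genotypes differ in code throughout (IE against D), so the intervals do not separate genotype from code. For Ikzf1 the log2 difference was 0.01 (95% interval -0.40 to 0.42) and for Tshz2 0.05 (-0.48 to 0.59). With the code as a covariate the Tshz2 difference was -0.5994, outside that interval. For Sp8 the interval ran from -0.01 to 3.53, so that a difference in either direction could not be told from the spread.

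None of the genes used to recognise iSPN moved past the threshold beside these factors. Of 8 listed iSPN genes, Gpr52 was not analysed here, and 0 of the other 7 were called in any comparison, with a median log2 fold change of 0.06 in Islet1Cre;Ebf1fl/- and 0.16 in Dlx5/6::Cre;Ebf1fl/- embryos beside 0.00 and 0.01 over all genes tested. Adora2a had 4727 to 5504 normalized counts in controls, 4737 to 6119 in Islet1Cre;Ebf1fl/- embryos and 5058, 6420 and 6385 in Dlx5/6::Cre;Ebf1fl/- embryos. Penk, which encodes enkephalin, had 4064 to 5123 in controls, 4373 to 5226 in Islet1Cre;Ebf1fl/- embryos and 3219, 6322 and 5988 in Dlx5/6::Cre;Ebf1fl/- embryos. Penk thus overlapped between genotypes while Ikzf1 did not. For Penk and Adora2a only replicate 1 of Dlx5/6::Cre;Ebf1fl/-, the embryo that stood apart, overlapped with controls. The other replicates lay above every control, as for Gpr6 and Grik3 but not for Drd2, Ptprm or P2ry1. Among 8 dSPN genes, Zfp521, a zinc finger partner of Ebf factors, was called lower in both comparisons (-1.28 and -2.15 on the log2 scale, adjusted p = 0.0110 and 0.000606 by edgeR). Chrm4 was called lower in Dlx5/6::Cre;Ebf1fl/- embryos (-1.48, adjusted p = 0.00391 in edgeR) and over the mean of both mutants (-1.17, adjusted p = 0.00362). In Islet1Cre;Ebf1fl/- embryos Chrm4 had -0.86 (adjusted p = 0.0762 in edgeR), with every mutant below every control. Neither gene had a called difference between the mutants. The other dSPN genes were not called, and the list went both ways. Log2 fold changes were above 0 for 3 of the 8 in Islet1Cre;Ebf1fl/- and 2 of the 8 in Dlx5/6::Cre;Ebf1fl/- embryos. The highest was Drd1, at 0.67 and 0.53. Of the 17 family relatives 12 passed the filter and 0 were called in any comparison, with log2 fold changes of -0.33 to 0.63 and -0.42 to 1.19.

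**Figure D4:**
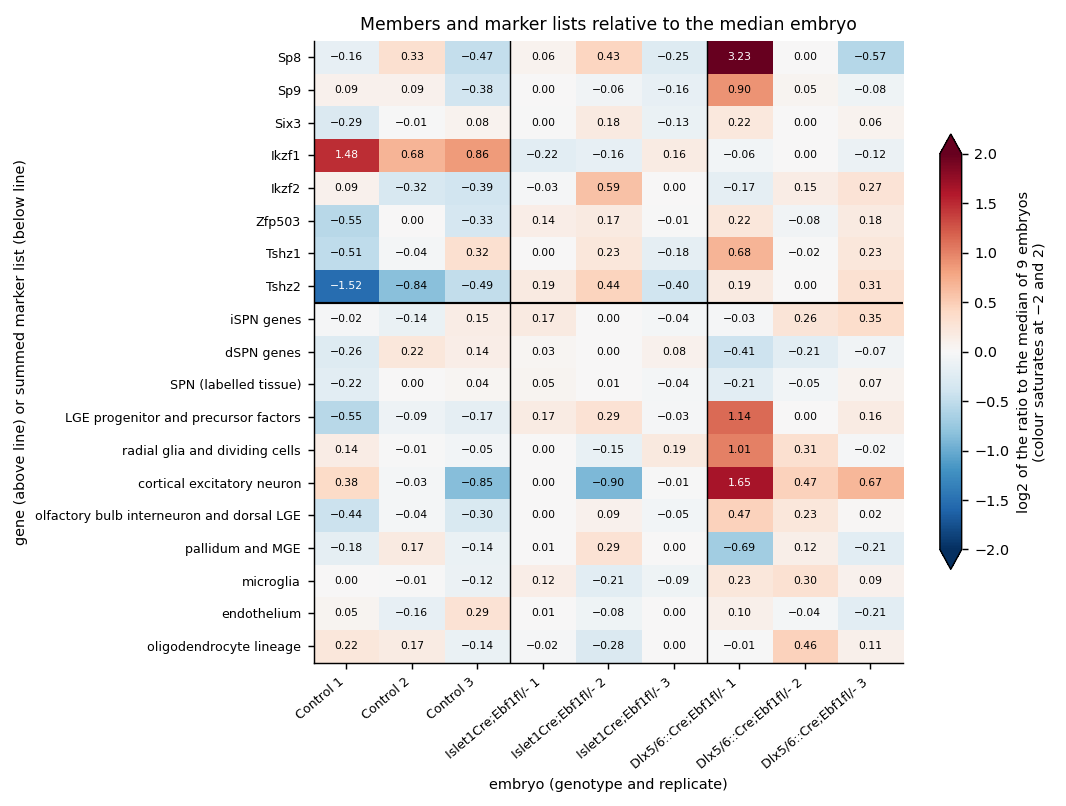
Log2 of the ratio of each embryo to the median of the 9 embryos, for normalized counts of the 8 members (upper rows) and for summed CPM of 11 marker lists (lower rows), with colours saturating at -2 and 2. Ikzf1 is high and Tshz2 low in the 3 controls, microglia stay within -0.21 and 0.30, and the first Dlx5/6::Cre;Ebf1fl/- embryo is high for Sp8 (3.23), Sp9 (0.90), LGE progenitor factors (1.14), radial glia and dividing cells (1.01) and cortical excitatory neurons (1.65).

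Levels of the members were compared across the 9 embryos in 84 relations, 28 between pairs of members and 56 with marker lists of other cell types, on log2 CPM with exact permutation tests adjusted over all of them. Six3 and Tshz1 rose and fell together, with Pearson's r = 0.947 (exact two-sided permutation p = 0.000141, adjusted p = 0.0118) and Spearman's rho = 0.967 (exact permutation p = 0.000165, adjusted p = 0.0139). Without the first control and the first Dlx5/6::Cre;Ebf1fl/- embryo, the farthest from the median of Six3, r was 0.870, and r of the deviations from the genotype means was 0.949. Without the first control alone r was 0.911 and no longer passed (exact permutation p = 0.00126, adjusted p = 0.106). Neither embryo code holds 6 embryos, so no r is given within them. For Sp8 and Sp9, r was 0.937 (exact permutation p = 0.00824, adjusted p = 0.103) and rho 0.667 (exact permutation p = 0.0589, adjusted p = 0.450), and without the first and the third Dlx5/6::Cre;Ebf1fl/- embryo r was 0.626. The size of r thus rested on those embryos, the first of which also stays in the deviations from the genotype means. On these deviations r was 0.935 for Sp8 with Sp9 (permutation p = 0.000515, adjusted p = 0.0216) and 0.898 for Six3 with Tshz2 (permutation p = 0.00089, adjusted p = 0.0249). For Six3 with Tshz2 the levels themselves had r = 0.795 (adjusted p = 0.103 in the exact permutation test), which pools the difference of Tshz2 between controls and mutants. The deviations were permuted over all 9 embryos, although those of a genotype are tied to each other by its mean. Their p values can therefore be too small, and neither relation is taken as passing. None of the 56 relations with marker lists passed, the lowest adjusted p being 0.103, and for Sp9 r was 0.823 with cortical excitatory neurons (exact permutation, adjusted p = 0.103) and 0.885 with radial glia and dividing cells (adjusted p = 0.193).

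For Ikzf1 the controls and mutants form separate clusters, so no pooled r with another member is given. On the deviations from the genotype means r was -0.842 for Ikzf1 with Tshz2 (permutation p = 0.00466, adjusted p = 0.0783) and -0.830 for Ikzf1 with Zfp503 (permutation p = 0.00606, adjusted p = 0.0847). The limit on the p values of deviations holds here too. Within the 6 mutants, a set chosen after seeing the data, r of Ikzf1 with Tshz2 was -0.886 (exact permutation p = 0.025, adjusted over 2 relations 0.05, not below the threshold) and rho -0.657 (exact permutation p = 0.175, adjusted p = 0.35), and without the first and the third Islet1Cre;Ebf1fl/- embryo r was -0.989. For Ikzf1 with Zfp503 r was -0.607 there (exact permutation p = 0.21) and rho -0.371 (exact permutation p = 0.497), and r was -0.631 without the same embryos.

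**Figure D5:**
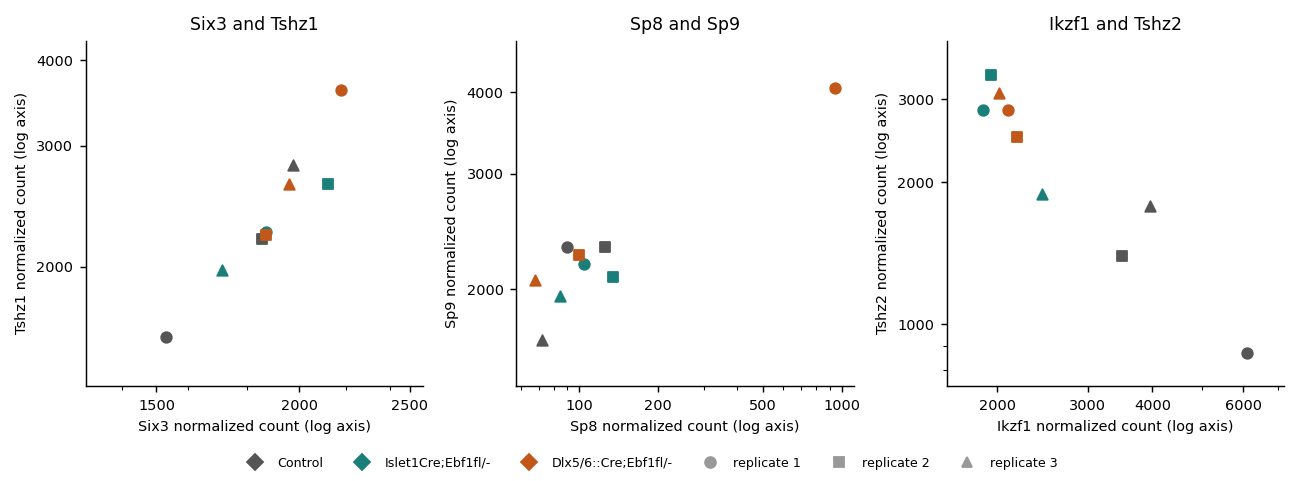
Normalized counts of 3 pairs of members in each of the 9 embryos, on log axes, with genotype by colour and replicate by symbol. Six3 and Tshz1 vary along 1 line with genotypes mixed, Sp8 and Sp9 are set apart by the first Dlx5/6::Cre;Ebf1fl/- embryo (942 and 4059.6), and for Ikzf1 and Tshz2 the controls form a group of their own.

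For each member the 3 genes whose log2 CPM was most like it over the 9 embryos were taken from 12043 genes with a mean normalized count of at least 100. These r values are the highest of many, and serve as a description. Sp8 varied most like Pax6 (r = 0.990), a factor of dorsal LGE and cortical progenitors, followed by the mitosis gene Birc5 (0.989) and the DNA repair gene Brca1 (0.987). The first Dlx5/6::Cre;Ebf1fl/- embryo had 942 normalized counts of Sp8 and 1050 of Pax6, against at most 135 and 250 in the others. The r of Sp8 with Pax6 thus rests largely on that library. For Sp8 and Sp9, r without it was not computed for these genes. Sp9 was nearest to Exo1 (0.984), Pias3 (0.976) and Tmem123 (0.975), and those of Six3 included Taf1 (0.949) and Ncoa2 (0.948). Ikzf1 was nearest to Cpxm1 (0.972), Sec14l2 (0.967) and Arhgef37 (0.964), r values that pool its separate clusters of controls and mutants. Ikzf2 was nearest to Begain (0.989), a gene without a name in GENCODE M21 (ENSMUSG00000102226, 0.939) and Grk3 (0.937). Zfp503 went with Enkd1 (0.974), Rap2c (0.957) and Cdk13 (0.956). Tshz1 was nearest to Pou3f4 (0.984), a POU factor of the developing striatum, with Fbxo28 (0.969) and Nup107 (0.961). Tshz2 was nearest to Ntn1 (0.984), which encodes the axon guidance factor netrin 1, with Myo16 (0.968) and Pde4dip (0.962). Every mutant lay above every control for Tshz2, so these r values pool that difference too.

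Overlapping genes may bear on some of these counts. Per the methods the libraries were strand specific, but the strand setting of the counting is not given in the sources used here. Tshz2 shares 5076 of its 7781 exonic bases with Gm26883, a long noncoding RNA on the opposite strand. Gm26883 had 3.6 to 19.1 normalized counts per embryo beside 870.2 to 3383 for Tshz2. Sp9 shares 270.0 bases with the convergent gene Cir1, at 259.6 to 339 normalized counts, and Six3 shares 168 with the antisense gene Gm28528, at 5.4 to 24.0. If the counting did not use strand, reads in these stretches cannot be assigned to either gene, so the counts of Tshz2, Sp9 and Six3 are uncertain to that extent. Among genes within 5 kb that share no exon, Zadh2 beside Tshz1 had 365 to 559.9 normalized counts, C130012C08Rik beside Zfp503 had 110.1 to 159.6, and Gm34294 beside Tshz2 had 4.9 to 23.4.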

How the data were processed

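For each of the 9 embryos the authors deposited a table of raw read counts by Ensembl identifier. Per the methods, they mapped reads to mm10 with STAR 2.4.0k, dropped reads with several matches, counted with HTSeq 0.5.3 in the Eoulsan pipeline and tested with DESeq 1.8.3; those tests were not used. Groups and replicate numbers came from sample titles. Here, edgeR 4.0.16 (R 4.3.3) fitted all 9 embryos by genotype, after filterByExpr (minimum count 10) and TMM scaling, with the quasi-likelihood test and Benjamini-Hochberg adjustment over 16368 genes; the members' rows were read from that fit. Normalized counts and an alternative test used DESeq2 1.42.0. CPM per kb used the union of exons in GENCODE M21, which held 44048 of 44886 identifiers. Correlations used log2 CPM with a prior count of 2 in SciPy 1.17.1. Members and gene lists were chosen with earlier results of these data known. Named were the members, genes within 5 kb (mean normalized count of at least 10), the 3 genes most like each member, iSPN genes, family relatives, and called or most extreme genes of other lists; Ptprc, Gsx2, Mki67 and the haemoglobin genes were singled out after their values were seen. A few genes that the lists or rules hold are not reported here. Simulated counts were used to check the edgeR code. Total counts of 16.5 to 41.5 M put counting error well below the spread between embryos for every member except where counts fall under 100.0. Alternatives covered scaling, filter, tool, samples fitted, embryo code, replicate number and left-out embryos.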

Additional observations from a re-analysis of the deposited data

How the results depend on the processing

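Between genotypes, the replicate number alone was tried as a pairing: same-numbered embryos of 2 genotypes had correlations of -0.23 to 0.18 in their deviations from the genotype means, so the numbers do not pair them. With the number as a block, 1 member (Ikzf1) passed over the mean of both mutants, where Tshz2 had 1.06 (adjusted p = 0.0540), and the all-gene counts were 143, 363, 0 and 367, so no other count of members changed. Ikzf1 kept its direction in each alternative run against Control, past the threshold in 17 of 20 for Islet1Cre;Ebf1fl/-, 17 of 19 for Dlx5/6::Cre;Ebf1fl/- and 18 of 18 for the mean. Tshz2 also kept its direction, but passed in 5 of 20, 6 of 19 and 10 of 18. Depth limits Sp8 most, with 47 to 873 reads per embryo.

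Members past the threshold were 2 in place of 1 in both single comparisons with DESeq2's Wald test and without a filter, and in the Islet1Cre;Ebf1fl/- comparison within IE codes. With the embryo code as a covariate they were 0 in place of 1 for Dlx5/6::Cre;Ebf1fl/- and 1 in place of 2 for the mean, where Tshz2 was lost. The IE setting and those without 2 embryos were chosen after seeing the data. Without the first Dlx5/6::Cre;Ebf1fl/- and the third Islet1Cre;Ebf1fl/- embryo 2 members passed in both single comparisons, and without the third control and the third Islet1Cre;Ebf1fl/- embryo 2 passed for Dlx5/6::Cre;Ebf1fl/-. Without the first control and the first Dlx5/6::Cre;Ebf1fl/- embryo 1 passed for the mean. With 1 embryo left out the numbers ran from 0 to 1 for Islet1Cre;Ebf1fl/-, 0 to 2 for Dlx5/6::Cre;Ebf1fl/- and 1 to 2 for the mean, and relations across embryos past the threshold from 0 to 4 in place of 3. Those 3 include the pooled relations of Ikzf1 with Tshz2 and with Zfp503, whose r is not given above. Zfp503 passed over the mean with DESeq2 (adjusted p = 0.0390), and in edgeR without a filter (0.0402) and without the second control (0.0370). In each case the cause was not tested.

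Reversed log2 values were all of members not called in that comparison. Without the first Dlx5/6::Cre;Ebf1fl/- and the third Islet1Cre;Ebf1fl/- embryo they were 0.0145 for Sp9 in Islet1Cre;Ebf1fl/-, -0.20 for Sp8 in Dlx5/6::Cre;Ebf1fl/-, and -0.52 for Sp8 and -0.1542 for Tshz2 between the mutants. Without the first control and the first Dlx5/6::Cre;Ebf1fl/- embryo they were 0.0525 (Sp9), -0.0081 (Six3) and -0.1252 (Tshz1) in Islet1Cre;Ebf1fl/-, -0.2493 (Sp8), -0.0018 (Six3) and -0.0419 (Tshz1) in Dlx5/6::Cre;Ebf1fl/-, and -0.3922 for Sp8 between the mutants. Tshz2 between the mutants was -0.5994 with the code as a covariate and -0.1543 without the third control and the third Islet1Cre;Ebf1fl/- embryo. With 1 embryo left out, values in Islet1Cre;Ebf1fl/- ran from -0.0219 to 0.4274 for Sp8, -0.1576 to 0.0527 for Sp9, -0.01 to 0.1733 for Six3 and -0.1276 to 0.2855 for Tshz1. Sp8 ran from -0.2001 to 2.4216 in Dlx5/6::Cre;Ebf1fl/- and from -0.3866 to 2.2322 between the mutants, where Ikzf1 ran from -0.062 to 0.1373 and Tshz2 from -0.1443 to 0.2471.

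Over all genes, the calls were 159 for Islet1Cre;Ebf1fl/-, against 401 with DESeq2, 311 without a filter, 259 with the samples of the comparison alone and 61 with the code, and 15 to 397 with 1 embryo left out. For Dlx5/6::Cre;Ebf1fl/- they were 392, against 844, 708, 181 and 32, and 143 to 613. Between the mutants they were 0, against 17, 13, 2 and 1, and 0 to 4. For the mean they were 452, against 781 with DESeq2 and 278 with the code, and 178 to 775.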
